A study of Mus musculus with 7 samples.

Results

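The 10 genes described here encode surface proteins and a bridging ligand that tell phagocytes to engulf a cell or to leave it alone: Cd47, Sirpa, Cd24a, Siglecg, Cd200, Cd200r1, Pilra, Axl, Mertk and Gas6. They were taken by their symbols from the gene list of the files, where each had 1 row, and they are 10 of the 32285 genes measured. Ligands were described on tumour and stromal cells, and receptors on macrophages, monocytes and microglia, in all 7 libraries of the NSCG brain tumour model, by treatment group.

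CD47 is a widely made "don't eat me" signal that binds SIRPA on myeloid cells, and SIRPA then recruits phosphatases that quiet the phagocyte. CD24 with Siglec-G, and CD200 with CD200R1, are further ligand and receptor pairs that restrain myeloid cells, and PILRA is an inhibitory receptor of myeloid cells that binds sialylated glycoproteins. GAS6 works in the other direction: it bridges phosphatidylserine on dying cells to the receptor kinases AXL and MERTK, and MERTK is a main receptor through which microglia and macrophages clear apoptotic cells.

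The tumours were grown from 1 line, NSCG-mCherry, which is EGFRvIII+ and Arf/Ink4a-/-, in wild-type C57BL/6 mice of 7 to 10 weeks, and all groups share that line and host. UT was untreated (1 library). IgG mice received 10 mg/kg of an IgG2b isotype control (2 libraries), and the isotype controls of the BPI arm also had oral diluent by gavage, though which IgG library that concerns is not given. BP mice received 5 mg/kg of B20, an antibody against VEGF, with 10 mg/kg of anti-PD-L1 (2 libraries). BPI added 10 mg/kg of oral IPI-145, an inhibitor of PI3K, to the BP antibodies (1 library), and the CD40 group had 2 doses of 100 ug of an agonist antibody against CD40 (1 library), and the labels do not say if dendritic cell vaccination went with it. Whole tumours were digested without a sort, at least 2 mice were pooled in each library, and cells were loaded on a 10x Chromium chip. A library is therefore 1 replicate of a pool, and the UT, BPI and CD40 groups have no replicate. The barcode list of UT differs from those of all other libraries. In every comparison of UT with IgG, the group and a possible difference of kit cannot be told apart. NFpp10, the other model of the series, was not analysed here.

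The 7 libraries held 68997476 to 186793886 UMIs (unique molecular identifiers, each standing for 1 captured RNA molecule) and gave 48588 cells after filtering. Cells were clustered without the 10 genes and without a list of related pathway genes, and classes were named from marker lists and carry "-like" in their names. The tumour-like class held 31374 cells (2646 to 5832 per library), the monocyte/macrophage-like class 3435 cells (58 to 1789) and the microglia-like class 2337 cells (54 to 860). Each of these 3 classes held at least some UMIs of each of its defining markers in every library, but not at like levels. In the microglia-like class BP 1 was low, with 857 CPM (counts per 1000000 UMIs) summed over P2ry12, Tmem119, Sall1 and Gpr34 against 2172 to 3866 in the other 6, and its 862 CPM over 5 monocyte/macrophage markers was about as much. Its part in the microglia-like levels of BP 1 given below was not tested. In the tumour-like class, levels of the glial genes Ptprz1 and Olig2 were 0.298 to 1.10 and 0.341 to 1.10 CPM in IgG 1, BP 2 and BPI, against 60.2 to 77.3 and 14.1 to 91.7 CPM in the other 4, while Sox2, Nes and Egfr were present in all 7. Those 3 libraries, which have consecutive library numbers and are called set A below, therefore stand apart in their tumour cells, and results that rest on them are given with that split. The clusters that held most of their tumour-like cells (19, 28 and 31) were named on 3 of 12 tumour markers, the least allowed. The other tumour-like clusters had 9 to 11 raised. CD40 and IgG 2 also have consecutive library numbers, and their tumour-like cells lay mostly in the same clusters (21, 23, 26, 27 and 30). RNA free in the droplets made up an estimated 1.28 to 3.72% of the UMIs of tumour-like cells, 5.03 to 12.1% in monocyte/macrophage-like cells and 5.46 to 29.2% in microglia-like cells. Any pair of libraries shared 0 to 21 cell barcodes.

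Every level below is the CPM of the UMIs summed over the cells of a class in a library, so fewer RNA molecules per cell of a class and a different mix of cells within it cannot be told apart. CPM of a 3' assay is compared within a gene, not between genes. Sirpa, Pilra and Cd200r1 have near-identical relatives (Sirpb1a, Sirpb1b and Sirpb1c; Pilrb1 and Pilrb2; Cd200r2, Cd200r3 and Cd200r4), and their counts are uncertain to the extent that reads were shared among copies.

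The ligands had different homes. Cd47 UMIs were counted in every class, though free RNA could account for an estimated 100% of them in astrocyte-like, 73.5 to 82.0% in ependymal or choroid-like and 44.8 to 54.7% in mural-like cells. That estimate takes tumour marker UMIs in a class as free RNA. Its shares may be too high where a class makes those glial genes itself, which was not tested. By the median over libraries, Cd24a was highest in neutrophil-like, dendritic-like and B-like cells, Cd200 in endothelial-like cells, and Gas6 in ependymal or choroid-like cells. Of the receptors, Sirpa, Pilra, Axl and Mertk were highest in myeloid classes (monocyte/macrophage-like, microglia-like or neutrophil-like), Cd200r1 in plasmacytoid dendritic-like cells and Siglecg in B-like cells. Tumour-like cells were the bulk of all cells, and they held a median of 74.3% of a library's Cd47 UMIs (52.9 to 87.6% over the 7 libraries), but 18.7% of its Sirpa UMIs (4.70 to 53.2%).

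**Figure D1:**
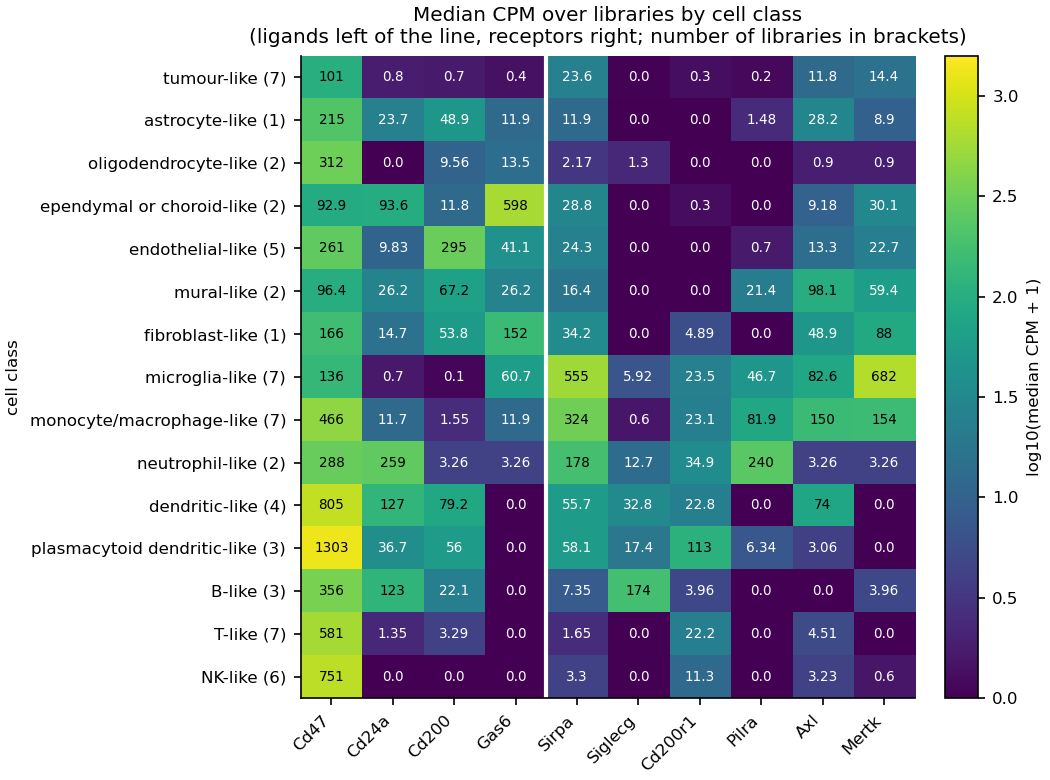
Median level of each gene over the libraries that had at least 20 cells of a class, with classes in rows, genes in columns and the colour giving log10 of the median CPM + 1. The number of libraries is in brackets after each class. Cd47 filled its whole column, Sirpa and Mertk were brightest in microglia-like cells (555 and 682 CPM) and Siglecg in B-like cells (174 CPM).

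Cd47 (chr16:49800533-49915010, plus strand; coordinates are those of mm10, GRCm38) stood at 401 CPM in the UT library in tumour-like cells, at 63.3 and 100.5 in IgG, at 252 and 72.2 in BP, at 102 in BPI and at 93.6 in CD40. UT and BP 1 were the high libraries, and the BP libraries lay on either side of IgG 2. The summed level of 5 monocyte/macrophage markers (Lyz2, Ms4a7, Ccr2, Ly6c2 and Mrc1) in tumour-like cells was also highest in UT and BP 1, at 51.2 and 44.6 CPM against 2.13 to 9.78 CPM in the other 5, with none of the 5 markers at 0 in any library. Its part in the tumour-like levels here and below was not tested. A Cd47 UMI was found in 57.6 to 95.3% of tumour-like cells, and in 6.41 to 31.5% after each cell was thinned to 1000 UMIs. Outside the tumour, Cd47 reached 1183 to 1399 CPM in plasmacytoid dendritic-like cells, 691 to 909 in dendritic-like cells, 472 to 809 in NK-like cells and 383 to 648 in T-like cells, so the ranges of the first 2 did not overlap and those of NK-like and T-like cells did. Endothelial-like cells had 142 to 424 CPM, of which free RNA could account for an estimated 14.9 to 80.6%, against 0.989 to 4.15% in tumour-like cells.

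In monocyte/macrophage-like cells Cd47 was 587 CPM in UT, 340 and 190 in IgG, 472 and 466 in BP, 652 in BPI and 200 in CD40. Both BP libraries, BPI and UT lay above both IgG libraries, and CD40 lay between the IgG libraries. When the class was split by its marker genes into a monocyte side (Ly6c2, Ccr2 and others) and a macrophage side (complement C1q genes, Mrc1 and others), Cd47 was 506 to 805 CPM on the monocyte side and 151 to 456 CPM on the macrophage side, higher on the monocyte side in each of the 6 libraries with at least 20 cells of both. Microglia-like cells had 278 CPM in UT, 93.5 and 94.6 in IgG, 245 and 136.2 in BP, 179 in BPI and 88.0 in CD40.

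Cd24a (chr10:43578284-43584265, plus strand), which encodes a small, heavily glycosylated surface anchor for Siglec-G, was 26.3 CPM in UT in tumour-like cells, 0.0568 and 0.786 in IgG, 13.6 and 0.252 in BP, 0.170 in BPI and 2.02 in CD40. These rest on 1544 UMIs in UT and 1531 in BP 1, but on 4 to 209 UMIs in the other 5 libraries. In monocyte/macrophage-like cells Cd24a was 2.58 to 29.1 CPM, with BP 1 lowest and BP 2 highest, and in microglia-like cells it was 0 to 3.13 CPM. B-like cells had 64.1 to 338 CPM in 3 libraries, dendritic-like cells 33.9 to 245 CPM in 4, and ependymal or choroid-like cells 51.4 and 135.7 CPM in 2. Neutrophil-like cells had 26.1 and 491 CPM in 2 libraries, from 49 cells and 30 UMIs in all. The lower of these lay below every B-like and dendritic-like value.

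Cd200 (chr16:45382135-45409053, minus strand) had its highest levels in the vessels of these tumours. Endothelial-like cells had 399 CPM in UT, 180 in IgG 2, 351 in BP 1, 295 in BPI and 142 in CD40, the 5 libraries with at least 20 such cells. Their clusters differed: cluster 0.0, with Ubd, Ccl21a and Ackr1 among its top genes, held 48 of 52 UT and 22 of 23 BP 1 cells. It held 6 of 25 in BPI, 2 of 87 in IgG 2 and 0 of 142 in CD40, the rest lying in clusters 0.2 and 0.4. Mural-like cells, the pericytes and smooth muscle around vessels, had 58.9 CPM in IgG 2 and 75.5 in CD40, and dendritic-like cells 27.1 to 190 CPM. The tumour-like class had 0.955 CPM in UT, 0.0142 and 0.703 in IgG, 1.48 and 0.0719 in BP, 0.127 in BPI and 0.685 in CD40, that is 1 to 167 UMIs per library. The value in IgG 1 is 1 UMI, with an exact 95% Poisson interval of 0.000359 to 0.0791 CPM, which covers counting error only. T-like cells carried 39.9 CPM of Cd200 in UT and 56.2 in BP 1, against 0 to 8.12 CPM in the other 5 libraries. Different clusters made up that class: cluster 4, with Il2ra, Icos and Tnfrsf4 among its top genes, held 286 of 286 UT and 1292 of 1294 BP 1 cells, and cluster 24, led by Ifng, held 38 of 39 in IgG 1, 57 of 58 in IgG 2, 221 of 226 in BP 2, 588 of 590 in BPI and 122 of 125 in CD40.

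Gas6 (chr8:13465374-13494490, minus strand), the soluble bridge to AXL and MERTK, was 583 and 613 CPM in ependymal or choroid-like cells of CD40 and IgG 2. Fibroblast-like cells of CD40 had 152 CPM, and endothelial-like cells 28.0 to 45.7 CPM over 5 libraries. Tumour-like cells had 0.154 to 0.539 CPM over all 7 libraries, and T-like cells 0 to 0.196 CPM. The myeloid values of Gas6 are given with the treatment groups below.

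Sirpa (chr2:129592835-129632228, plus strand), the receptor of CD47, was 319 CPM in UT in monocyte/macrophage-like cells, 324 and 371 in IgG, 830 and 328 in BP, 282 in BPI and 314 in CD40. Only BP 1 lay well away from the rest. Microglia-like cells had 408 CPM in UT, 544 and 556 in IgG, 696 and 697 in BP, 492 in BPI and 602 in CD40, with both BP libraries above the other 5. After thinning, 24.0 to 55.2% of monocyte/macrophage-like cells and 37.0 to 53.2% of microglia-like cells had a Sirpa UMI (68.6 to 96.8% and 76.0 to 98.6% unthinned). T-like cells, which should lack it, had 0 to 0.8% thinned and 0 to 4.87% unthinned, at median depths of 2394 to 6071.5 UMIs against 4695 to 16695 in the monocyte/macrophage-like and 2896 to 14845.5 in the microglia-like class.

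Mertk (chr2:128698956-128802894, plus strand) was 154 CPM in UT in monocyte/macrophage-like cells, 110 and 222 in IgG, 219 and 73.8 in BP, 59.6 in BPI and 192 in CD40. Its 3 lowest values were those of set A, and the IgG and BP ranges overlapped. In microglia-like cells it was 447 CPM in UT, 621 and 593 in IgG, 791 and 1307 in BP, 832 in BPI and 682 in CD40. Both IgG libraries lay below BP, BPI and CD40 and above UT, and 38.9 to 66.3% of these cells had a Mertk UMI after thinning, against 0 to 0.169% of T-like cells.

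Axl (chr7:25757273-25788705, minus strand) was 289 CPM in UT in monocyte/macrophage-like cells, 122 and 130 in IgG, 198 and 150 in BP, 127 in BPI and 189 in CD40. In microglia-like cells it was 186 CPM in UT, 29.4 and 82.6 in IgG, 219 and 21.7 in BP, 32.4 in BPI and 121 in CD40. The 3 microglial values under 33 CPM were those of set A, each below the 4 others, and the estimated free RNA share of that class was also highest there, at 15.2 to 29.2% against 5.46 to 7.24%. The summed level of the same 5 monocyte/macrophage markers in that class ran from 45.4 to 144 CPM in the libraries of set A, and was 269 CPM in UT and 855 to 959 CPM in the remaining 3. Lyz2 carried the sum, at 37.5 to 131 CPM in set A against 203 to 939 CPM. The other 4 did not all split that way: Ly6c2 was 0 to 20.1 CPM in set A against 0.130 to 34.4, Ms4a7 0 to 13.4 against 7.96 to 31.3, Mrc1 0 against 0 to 37.0, and Ccr2 was at 0 in 5 of the 7 libraries. The part of either in the Axl levels was not tested. Mural-like cells had 68.0 and 128.3 CPM, and dendritic-like cells 27.0 to 186 CPM.

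Pilra (chr5:137821952-137836281, minus strand) was 99.9 CPM in UT in monocyte/macrophage-like cells, 91.7 and 70.1 in IgG, 48.8 and 94.1 in BP, 81.9 in BPI and 73.9 in CD40. In microglia-like cells it was 61.0 CPM in UT, 46.8 and 54.1 in IgG, 15.5 and 41.5 in BP, 34.0 in BPI and 52.5 in CD40. BP 1 was the low library in both classes. Neutrophil-like cells had 416 CPM in BP 1 and 65.2 CPM in BPI, from 26 and 23 cells.

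Cd200r1 (chr16:44765736-44794978, plus strand), the receptor of CD200, was 18.5 CPM in UT in monocyte/macrophage-like cells, 41.7 and 21.7 in IgG, 52.7 and 23.7 in BP, 23.1 in BPI and 13.3 in CD40. Microglia-like cells had 13.9 to 31.6 CPM, and the ranges of the 2 classes overlapped. Plasmacytoid dendritic-like cells had 113 CPM in UT, 259 in BP 1 and 96.2 in BPI, all above the highest value of either myeloid class, and T-like cells had 16.5 to 48.0 CPM.

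Siglecg (chr7:43408204-43418358, plus strand), the receptor of CD24, was 368 CPM in UT, 119 in BP 1 and 174 in CD40 in B-like cells, where it is known to restrain B cell receptor signals. Dendritic-like cells had 14.8 to 48.1 CPM. Microglia-like cells had 10.9 CPM in UT, 2.67 and 1.57 in IgG, 8.16 and 5.92 in BP, 10.8 in BPI and 1.57 in CD40, and monocyte/macrophage-like cells had 0 to 1.35 CPM.

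**Figure D2:**
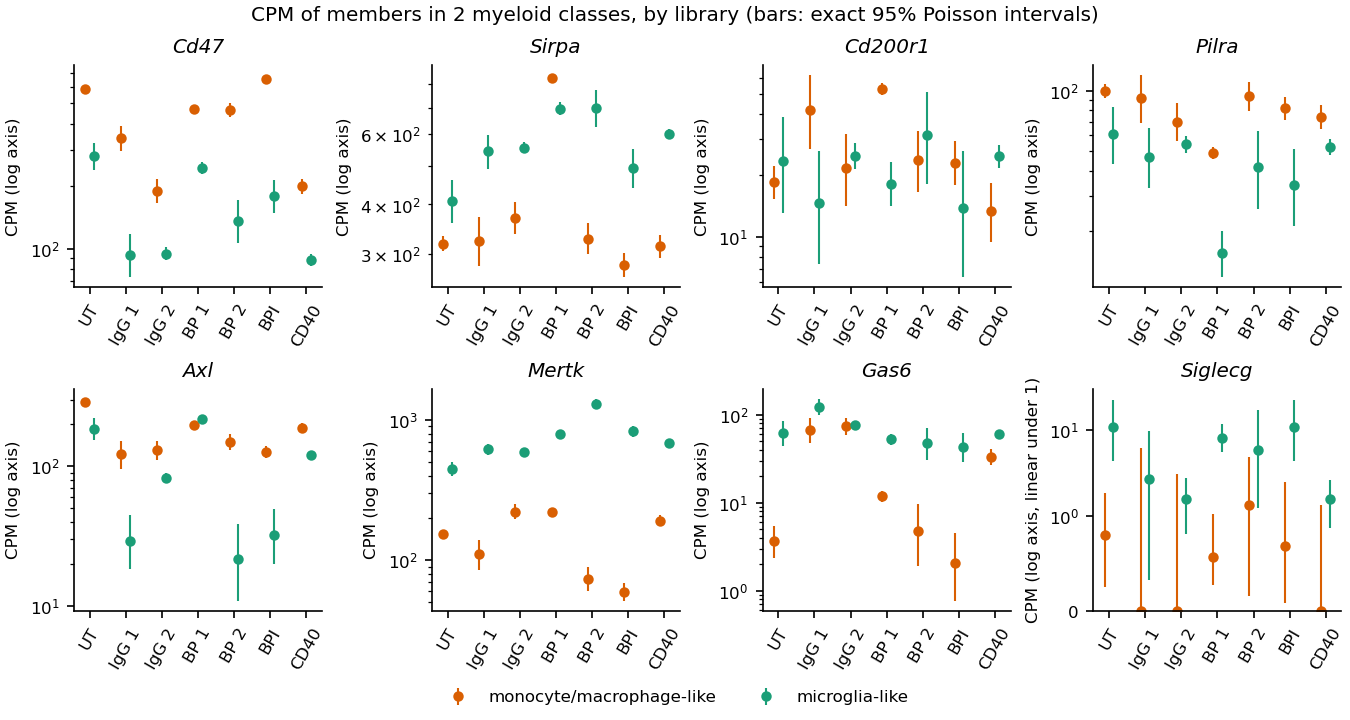
CPM (log axis) of 8 of the genes in monocyte/macrophage-like cells (orange) and microglia-like cells (green) of each library, with exact 95% Poisson intervals that cover counting error only. Mertk was higher in microglia-like than in monocyte/macrophage-like cells in all 7 libraries, and Cd47 lower, while the Gas6 points of monocyte/macrophage-like cells spread from 2.07 to 74.3 CPM.

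Which class carries which gene was tested on the sums of the 3 large classes, with class and library in the model. Against tumour-like cells, 8 of the 8 genes tested were higher in monocyte/macrophage-like cells at an adjusted p under 0.05 in edgeR's quasi-likelihood test, where 31.9% of 13812 genes were higher (73.0% called in either direction). The log2 fold changes ran from 2.14 ± 0.25 (SE) for Cd47 to 9.14 ± 0.34 for Pilra. Cd24a did not keep that direction in every library. In UT it was 26.3 CPM in tumour-like cells, against 10.6 on the monocyte side and 3.06 on the macrophage side. In BP 1 it was 13.6 CPM in tumour-like and 2.58 in monocyte/macrophage-like cells. All remaining libraries had more in monocyte/macrophage-like cells, with set A at 11.7 to 29.1 against 0.0568 to 0.252 CPM. In microglia-like cells 6 of the 8 were higher than in tumour-like cells, where 30.6% of genes were (72.3% in either direction): Pilra, Gas6, Cd200r1, Mertk, Sirpa and Axl. Cd47 and Cd24a did not pass there. Siglecg and Cd200 were too low for the filter and were not tested. Pilra (0.0636 to 0.341 CPM in tumour-like cells), Gas6 and Cd200r1 passed it through the myeloid sums where they are high and so had to differ, and these counts describe the genes that passed without supporting a statement on all 10.

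Of the same 8 genes, 4 were higher and 2 lower in monocyte/macrophage-like than in microglia-like cells by edgeR, where 23.2% of genes were higher and 17.6% lower (40.8% in all). Cd47 was higher by a log2 fold change of 1.76 ± 0.24 (adjusted p = 2.95e-05), Axl by 1.38 ± 0.28 (adjusted p = 0.000981), Pilra by 1.23 ± 0.25 (adjusted p = 0.000984) and Cd24a by 5.29 ± 1.42 (adjusted p = 0.00678). The Cd24a fold rests on 17 UMIs over all 2337 microglia-like cells, with 0 in IgG 1 and BP 2, and its size depends on the prior count. Cd24a passed the filter through the monocyte/macrophage-like sums where it is higher and so had to differ, and its call is a description only. Mertk was lower, with a log2 fold change of -2.16 ± 0.28 (adjusted p = 1.42e-05), and so was Gas6, at -1.54 ± 0.44 (adjusted p = 0.0108). Sirpa and Cd200r1 did not pass.

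**Figure D3:**
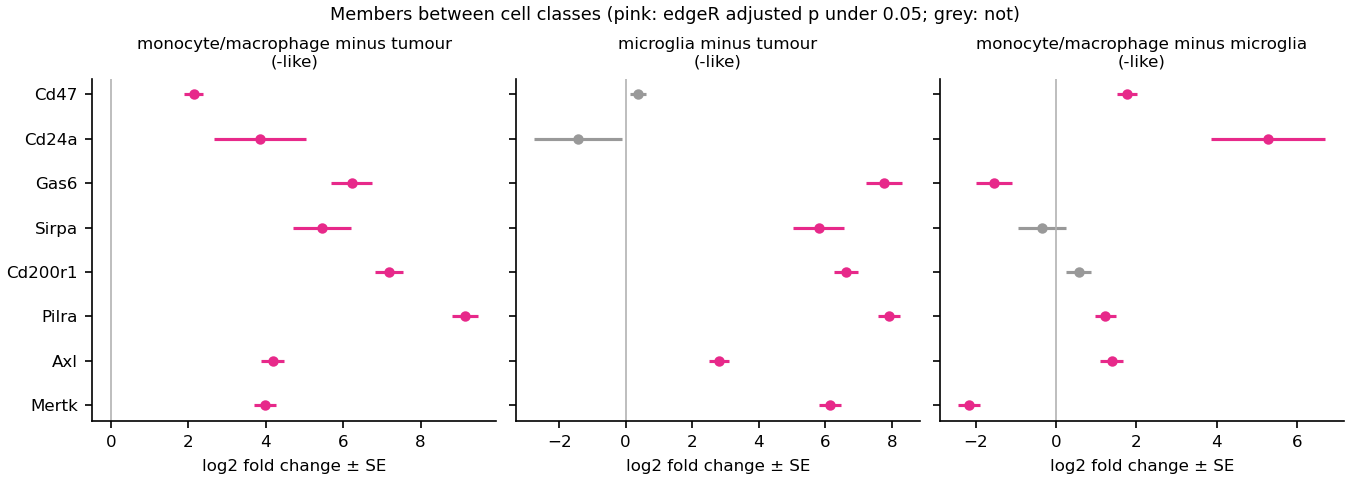
Log2 fold changes with standard errors between cell classes for the 8 genes that could be tested, each panel 1 contrast, with pink for an edgeR adjusted p under 0.05 and grey for the rest. In the right panel Cd24a, Cd47, Axl and Pilra lie right of 0 (higher in monocyte/macrophage-like cells) and Mertk and Gas6 left of it.

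The pathway list around these genes had 61 members in the files, of which 55 were tested between classes. Against microglia-like cells, 29 of the 55 were higher and 8 lower in monocyte/macrophage-like cells in edgeR, against 23.2% and 17.6% of all genes, with a median log2 fold change of 0.78 over the list and 0.05 over all genes. The relatives that signal in the opposite direction to Sirpa and Pilra were among the higher ones: Sirpb1a, Sirpb1b and Sirpb1c, which had 3 UMIs each over all microglia-like cells and are given no fold, Pilrb2 (4.20 ± 0.33) and Pilrb1 (3.45 ± 0.38). Genes that passed the filter through the class where they are high had to differ, so the counts and the median describe the tested genes and support no statement on the list. Also higher were the galectin Lgals3 (4.60 ± 0.58), the adaptor Dok2 that acts below CD200R1 (3.36 ± 0.32), the phosphatidylserine receptors Cd300lb (3.27 ± 0.53), Timd4 (2.79 ± 0.58) and Stab1 (1.67 ± 0.27), and the other genes Lilra5, Slamf7, Pirb, Thbs1, Fcgr2b, Lilrb4a, Siglec1, Mfge8, Fcgr4, Fcer1g, Clec4a2, Cd68, Cd300a, Cd22, Dok1, Ptpn6, Rac1, Dock1 and Ptpn11. The 8 lower genes were the siglecs Siglech (-7.14 ± 0.47), Siglecf (-4.46 ± 0.44) and Cd33 (-1.56 ± 0.39), the second ligand of the MERTK family Pros1 (-3.00 ± 0.18), the integrin chains Itgb3 (-2.95 ± 0.62) and Itgb5 (-1.20 ± 0.28), Elmo1 (-1.45 ± 0.27) and Lair1 (-0.99 ± 0.29).

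Against tumour-like cells, 44 of the 55 list genes were higher and 6 lower in monocyte/macrophage-like cells, against 31.9% and 41.0% of all genes. In microglia-like cells 46 were higher and 7 lower, against 30.6% and 41.7% of all genes. Members of the list also passed the filter here through the myeloid sums (Sirpb1a was at 0 UMIs in 5 of the 7 tumour-like sums, Timd4 in 4), and the counts support no statement on the list. The genes lower in both were Gulp1, Dock1 and Megf10 of the engulfment machinery, Npdc1, Mfge8 and Tyro3, and Ptpn11 was the seventh in microglia-like cells. By its level per class the third receptor of the family, Tyro3, thus lay on the tumour side while Axl and Mertk lay on the myeloid side. By share of UMIs, tumour-like cells still held a median of 46.8% of a library's Axl (39.9 to 84.8%). For Mertk their median share was 33.7% (17.5 to 52.5%).

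The sequences just upstream of 4 genes that differed between the 2 myeloid classes are shown: Pilra and Axl were higher in monocyte/macrophage-like cells and Mertk and Gas6 in microglia-like cells. Each is the 250 bases before the start site in the RefSeq promoter table (GRCm38.p6), 5' to 3' on the gene's own strand, with capitals for matches to any of 5 short motifs on either strand; 7 of the 10 genes had an entry. The windows are Pilra, chr5:137836279-137836528, minus strand; Axl, chr7:25788734-25788983, minus strand; Mertk, chr2:128698665-128698914, plus strand; and Gas6, chr8:13494536-13494785, minus strand.
Pilra: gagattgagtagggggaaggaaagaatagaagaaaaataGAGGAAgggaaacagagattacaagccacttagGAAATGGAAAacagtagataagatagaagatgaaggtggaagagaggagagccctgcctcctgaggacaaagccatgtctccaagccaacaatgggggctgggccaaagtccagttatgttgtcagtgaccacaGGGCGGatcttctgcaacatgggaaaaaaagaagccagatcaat
Axl: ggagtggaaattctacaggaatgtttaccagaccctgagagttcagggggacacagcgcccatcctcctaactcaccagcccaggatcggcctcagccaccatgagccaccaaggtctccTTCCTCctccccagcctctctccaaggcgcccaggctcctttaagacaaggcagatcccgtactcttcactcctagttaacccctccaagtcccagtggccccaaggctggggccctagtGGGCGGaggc
Mertk: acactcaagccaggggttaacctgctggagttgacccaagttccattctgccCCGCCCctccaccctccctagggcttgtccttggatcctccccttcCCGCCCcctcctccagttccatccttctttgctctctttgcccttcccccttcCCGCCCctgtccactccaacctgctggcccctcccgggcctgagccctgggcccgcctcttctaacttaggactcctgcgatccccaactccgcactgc
Gas6: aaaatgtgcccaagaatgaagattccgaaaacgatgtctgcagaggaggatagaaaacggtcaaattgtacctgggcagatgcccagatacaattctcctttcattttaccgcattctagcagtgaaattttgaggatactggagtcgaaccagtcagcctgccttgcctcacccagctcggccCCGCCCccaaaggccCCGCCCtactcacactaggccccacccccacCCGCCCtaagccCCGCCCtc

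The motifs searched were GAGGAA (the PU.1 type of ETS site, in 23.1% of the 27025 windows of the table), the interferon response element (ISRE: GAAA, then any 2 bases, then GAAA again, 3.04%), TGANTCA (AP-1, 6.87%), GGGCGG (a GC box, 32.9%) and TATAAA (the TATA box, 12.97%). Pilra had GAGGAA at bases -211 to -206 from the start, an ISRE at -178 to -169 and a GC box at -44 to -39. Axl had GAGGAA on the opposite strand at -130 to -125 and a GC box at -10 to -5. Mertk had 3 GC boxes and Gas6 had 4, with no match to the other motifs in either window. Cd47, which was also higher in monocyte/macrophage-like cells and is not printed, had 2 GC boxes and no GAGGAA. Its window, chr16:49855404-49855653, lies inside the span given above for the gene. The promoter table lists 2 start sites for Cd47, and only the first was searched. Siglecg, also not printed, had 2 GAGGAA matches on the opposite strand. Its level was 1.57 to 10.9 CPM in microglia-like and 0 to 1.35 CPM in monocyte/macrophage-like cells. These are matches of letters, not sites of binding.

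The BP and IgG ranges overlapped in tumour-like cells for Cd47, Cd24a, Cd200, Sirpa, Axl and Mertk, with BP 1 above both IgG libraries and BP 2 below IgG 2. Of the 9 genes tested, 0 passed edgeR's adjusted p of 0.05 for BP, BPI or CD40 against IgG, where 0% of 20252 genes passed in each. IgG 1 and BP 2 belong to set A and IgG 2 and BP 1 do not, so the spread inside each pair takes in that split. The SE of BP against IgG ran from 0.54 for Mertk to 2.04 for Cd24a, and a count of 0 does not show unchanged levels. At an unadjusted p under 0.05 edgeR had 0 of the 9 in each of the 3 comparisons, against 1.95%, 0.978% and 0.0938% of all genes, and DESeq2 called 0 of the 9 in each, against 0.296%, 0.0346% and 0% of all genes. For UT against IgG edgeR again called 0 of 9 (0% of 19996 genes), with 1 under an unadjusted p of 0.05 against 12.0% of all genes. That 1 was Cd47, at a log2 fold change of 2.26 ± 0.66 (edgeR adjusted p = 0.394). DESeq2 called Cd47 (adjusted p = 0.0375) and Cd24a higher in UT, beside 3.92% of all genes in either direction. With the library split added to the model edgeR called both higher too (Cd47 1.74, adjusted p = 0.0366), beside 3.54% of all genes. The UT cells of this class lay in clusters with almost no IgG cells: cluster 2 held 1554 of the 2646 and cluster 5, with Cxcl10, Ifit3 and Oas1a among its top genes, 894, each beside 1 IgG cell. Of the 4973 BP 1 cells, 4466 lay in cluster 6, beside 1 cell of IgG 1 and 9 of IgG 2.

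Levels in tumour-like cells were also set side by side for IgG 1, BP 2 and BPI against the other 4 libraries, and each side mixes treatments. Because this split was taken up for its difference in tumour-like expression, a test across it restates that difference, and what follows is a description. Sirpa was 0.767, 1.26 and 1.23 CPM in IgG 1, BP 2 and BPI and 23.6 to 50.2 CPM in the others, with no overlap. Cd24a was 0.0568 to 0.252 against 0.786 to 26.3 CPM, Cd200 0.0142 to 0.127 against 0.685 to 1.48 CPM, and Mertk 7.43 to 8.89 against 14.4 to 22.7 CPM. The edgeR fit put 4 of 9 genes (these 4) lower in set A and 0 higher, beside 8.74% of 18347 genes lower and 6.34% higher (15.1% in all, 31.0% under an unadjusted p of 0.05), and without BP 2 only 1. Cd200 and Cd24a had 1 to 14 UMIs in each library of set A, passed the filter through the others and had to differ, so that count supports no statement on the 10 genes. The summed level of 4 microglial markers in tumour-like cells (P2ry12, Tmem119, Sall1 and Gpr34) split the same way, with set A at 1.45 to 1.72 CPM and the others at 11.6 to 15.5 CPM, with none of the 4 at 0 in any library. P2ry12 alone was 0.383 to 0.509 CPM for set A against 2.23 to 3.72 CPM, and Sall1, which carried the sum in the others, was 0.170 to 0.403 and 7.52 to 12.05 CPM. Tmem119 (0.0994 to 0.339 against 0.323 to 0.904 CPM) and Gpr34 (0.467 to 0.795 against 0.256 to 0.916 CPM) overlapped. Their part in the Sirpa and Mertk levels was not tested.

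An estimated 27.6 to 35.4% of the few Sirpa UMIs of set A could come from free RNA, against 2.56 to 13.6% in the other libraries. Axl was 7.998 to 9.11 against 11.8 to 30.9 CPM without overlap. Of the 45 pathway genes in the same fit, and likewise as a description, the log2 fold change of set A was above 0 among those past an adjusted p of 0.05 for Calr (0.74 ± 0.12), Pianp (1.44 ± 0.37) and Tulp1 (3.45 ± 0.66), and below 0 for Megf10 (-2.33 ± 0.33), Abca1 (-2.28 ± 0.54), Pirb (-1.95 ± 0.42), Lrp1 (-1.84 ± 0.39), Tyro3 (-1.42 ± 0.34), Pros1 (-1.06 ± 0.19), Qpctl (-0.84 ± 0.22) and Itgav (-0.73 ± 0.19).

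**Figure D4:**
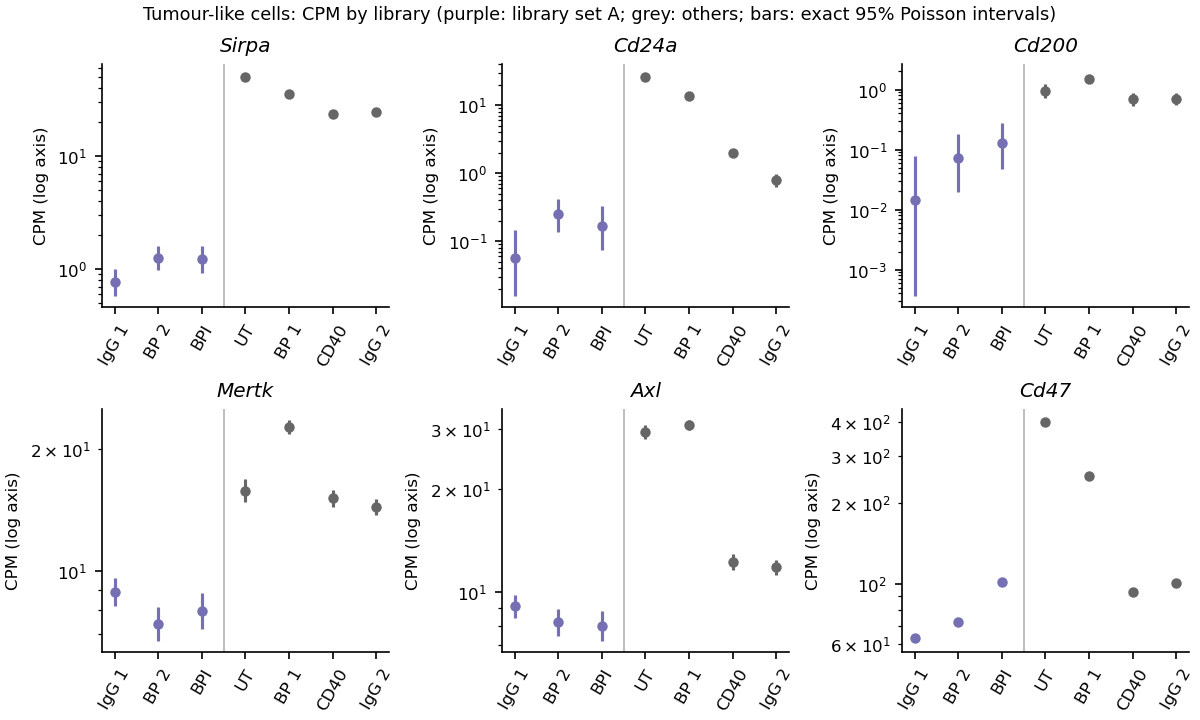
CPM (log axis) of 6 genes in the tumour-like cells of each library, with set A in purple, the other libraries in grey and exact 95% Poisson intervals. Sirpa, Cd24a, Cd200, Mertk and Axl of the purple libraries lie below every grey library, while Cd47 overlaps between the sides, at 63.3 to 102 against 93.6 to 401 CPM.

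In monocyte/macrophage-like cells Gas6 was 3.66 CPM in UT (23 UMIs), 66.7 and 74.3 in IgG (40 and 89 UMIs), 11.9 and 4.74 in BP (207 and 7 UMIs), 2.07 in BPI (6 UMIs) and 33.5 in CD40 (93 UMIs). Both IgG libraries lay above the other 5. The log2 fold change against IgG was -2.90 ± 0.44 for BP (edgeR adjusted p = 0.180), -4.54 ± 0.68 for BPI (adjusted p = 0.0678) and -3.90 ± 0.62 for UT (adjusted p = 0.0649), so Gas6 did not pass in any of the 3. BPI against BP gave -1.65 ± 0.66 (edgeR adjusted p = 0.998).

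By edgeR, 0 of 8 genes passed for BP against IgG (0% of 11634 genes called), with 1 under an unadjusted p of 0.05 (8.07% of genes), and DESeq2 called 1 (1.01% of genes). For BPI against IgG 0 of 8 passed (0.146% of genes called), with 2 under an unadjusted 0.05 (11.7%), and DESeq2 called 1 (1.96%). For CD40 against IgG 0 of 8 passed (0% called), with 0 under 0.05 (1.36%), and DESeq2 called 0 (0.0258%). For BPI against BP 0 of 8 passed (0% called), with 1 under 0.05 (2.47%), and DESeq2 called 0 (0.00860%). For UT against IgG 0 of 9 passed (0.115% of 12190 genes called, 0.0984% higher and 0.0164% lower), with 3 under 0.05 (12.3%), and DESeq2 called 1 (1.89%). Each gene that DESeq2 called in this class was Gas6, lower than in IgG.

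The Gas6 call turned on the settings. It passed in 8 of 15 alternatives for BP (adjusted p from 4.32e-10 to 0.9996), in 8 of 13 for BPI (2.05e-07 to 0.995) and in 10 of 12 for UT (3.16e-09 to 0.0594), always lower than in IgG. For BP the log2 fold change was -2.97 without IgG 1, -2.86 without IgG 2, -3.62 without BP 1 and -2.61 without BP 2. In the same order it was -4.59, -4.48, -4.55 and -4.61 for BPI, and -3.96, -3.84, -3.99 and -3.90 for UT. Such a fit leaves 1 library in IgG or BP, so a pass in it, here or below, is not firmer evidence. The SE for BP rose from 0.44 to 0.63 without IgG 1 and to 0.66 without IgG 2. With IgG and BP replicate numbers as a block, which pairs a set A library with another outside it, BP against IgG gave -3.07 (edgeR adjusted p = 0.0266).

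The cells behind the class differed between libraries. A cluster led by Gpnmb, with Lyz2, Apoe, Lgals3 and Cd68 among its top genes, made up 22.7 and 63.8% of the monocyte/macrophage-like cells in IgG, 69.0% in CD40, 7.76% in BP 2, 1.22% in BPI, 0.362% in UT and 0% in BP 1. It held 36 of the 40 Gas6 UMIs of the class in IgG 1, 89 of 89 in IgG 2, 7 of 7 in BP 2, 92 of 93 in CD40 and 2 of 6 in BPI. In UT it held 0 of 23 and in BP 1 0 of 207, since other clusters made up the class there: cluster 7 had 524 of the 552 UT cells and cluster 15 had 1783 of the 1789 BP 1 cells. The Gpnmb-led cluster came from splitting a larger cluster, while clusters 7 and 15 were not split. Its shares therefore cannot show whether like cells were absent from UT and BP 1. Within the Gpnmb-led cluster Gas6 was 134 and 85.2 CPM in IgG, 30.2 in BP 2, 39.4 in BPI and 40.1 in CD40, from 17, 37, 18, 7 and 107 cells.

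On the macrophage side alone Gas6 was 5.86 CPM in UT, 107 and 82.5 in IgG, 16.7 and 9.63 in BP, 6.04 in BPI and 36.9 in CD40, so both IgG libraries were again highest and CD40 came next. The log2 fold changes there were -2.74 for BP (edgeR adjusted p = 0.173), -3.71 for BPI (0.258) and -3.71 for UT (0.0401), the last of which passed, beside 0.801% of all genes there. On the monocyte side Gas6 was 0 to 0.892 CPM. The summed level of 4 defining microglial markers in the whole class (P2ry12, Tmem119, Sall1 and Gpr34) was also higher in IgG and CD40: 155 and 266 CPM in IgG and 206 in CD40, against 92.9 in UT, 54.4 and 63.6 in BP and 48.5 in BPI. Tmem119 (86.7 to 151 against 21.7 to 68.5 CPM) and Gpr34 (35.7 to 74.3 against 3.02 to 5.61 CPM) carried that sum. P2ry12 was lower in IgG 1 (23.3 CPM) than in BP 1 (25.1 CPM), and Sall1 ran the other way, at 0 in both IgG libraries and BP 2, 0.361 CPM in CD40 and 0.954 to 1.95 CPM in UT, BPI and BP 1. The monocyte marker Ly6c2 was 867 and 45.9 CPM in IgG and 63.5 in CD40, against 3253 in UT, 864 and 1876 in BP and 2574 in BPI, with IgG 1 and BP 1 level. The monocyte marker Ccr2 did not follow it, at 220.1 and 89.3 CPM in IgG, 103.5 in CD40, 79.2 in UT, 107 and 185 in BP and 188 in BPI. The part of these markers in the Gas6 levels was not tested.

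**Figure D5:**
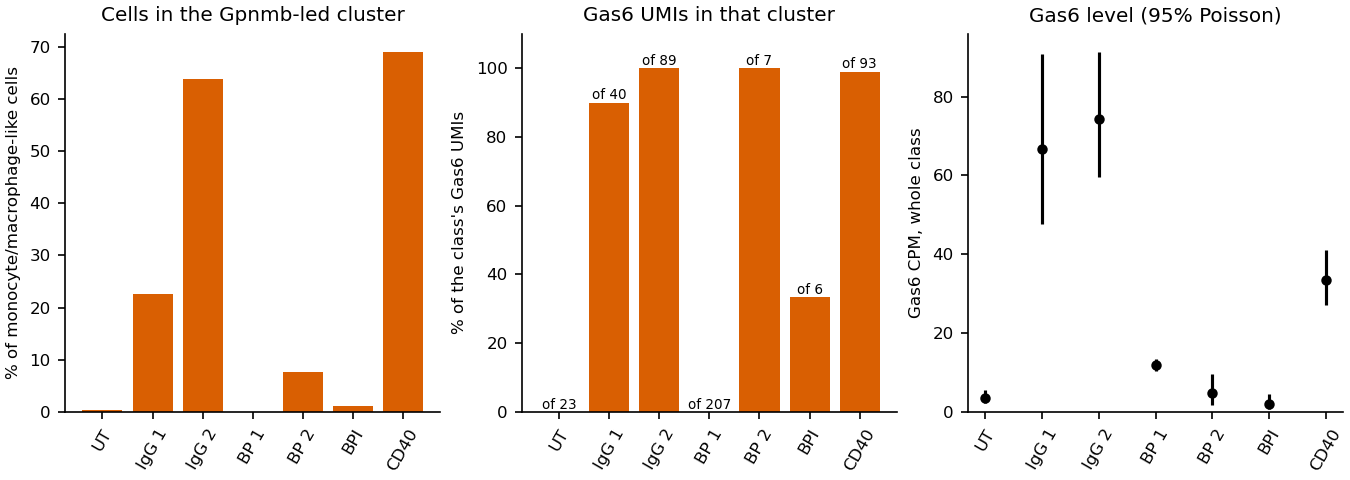
Monocyte/macrophage-like cells of each library: the percent that lay in the Gpnmb-led cluster (left), the percent of the Gas6 UMIs of the class in that cluster with the UMI total above each bar (middle), and the Gas6 level of the class in CPM with exact 95% Poisson intervals (right). IgG 1, IgG 2 and CD40 are the 3 libraries with over 20% of cells in the cluster and with the 3 highest Gas6 levels.

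Cd47 in monocyte/macrophage-like cells had a log2 fold change of 1.84 ± 0.55 for BPI against IgG (edgeR adjusted p = 0.248) and 1.51 ± 0.56 for UT (adjusted p = 0.337). It passed for BPI without BP 1 (adjusted p = 0.0406) and for UT without BP 1 (0.0305). On the macrophage side Cd47 was 456 CPM in UT, 196 and 151 in IgG, 395 and 317 in BP, 411 in BPI and 170 in CD40, with UT, BPI and both BP libraries above IgG and CD40 there too. Axl had 1.56 ± 0.43 for UT against IgG (edgeR adjusted p = 0.209), and passed without BP 1 (0.0129) or BP 2 (0.0447).

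In microglia-like cells Gas6 was 62.5 CPM in UT, 123 and 77.5 in IgG, 52.8 and 47.4 in BP, 43.2 in BPI and 60.7 in CD40. Both IgG libraries again lay above the other 5, and BP against IgG gave a log2 fold change of -0.95 ± 0.34 (edgeR adjusted p = 0.999). Cd47 gave 1.05 ± 0.39 for BP against IgG (edgeR adjusted p = 0.999; 1.42 and 0.0116 without BP 2, 0.54 and 0.614 without BP 1) and 1.66 ± 0.46 for UT (edgeR adjusted p = 0.489). For UT it passed without BP 1 (adjusted p = 0.0170) or BP 2 (0.0239). Siglecg gave 2.66 ± 1.02 for BPI against IgG and did not pass, from 7 UMIs in BPI and 2 and 12 UMIs in IgG. Cluster 16 made up 221 of 222 BP 1 and 29 of 54 UT cells of this class, and cluster 17 nearly all others.

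By edgeR 0 of 8 genes passed in microglia-like cells for BP, BPI or CD40 against IgG or for BPI against BP, where 0% of 12302 genes passed in each. Under an unadjusted p of 0.05 there were 2 genes for BP (4.60% of all genes), 1 for BPI (3.33%), 0 for CD40 (0.325%) and 0 for BPI against BP (3.22%). For UT against IgG 0 of 7 passed (0% of 9546 genes), with 1 under 0.05 (8.34%). DESeq2 called 0 in each of these, against 0.406% of all genes for BP, 0.154% for BPI, 0% for CD40, 0.0163% for BPI against BP and 0.807% for UT.

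None of the 40 to 54 tested genes of the pathway list passed edgeR's adjusted p in any treatment or UT comparison of the 3 classes. The comparisons with IgG share the same 2 IgG libraries, and the genes with the smallest p are given with their own values. Stab1, a scavenger receptor that binds phosphatidylserine, was 213 and 217 CPM in IgG monocyte/macrophage-like cells, 83.0 and 44.0 in BP, 38.6 in BPI, 107 in CD40 and 86.4 in UT. Its log2 fold change was -1.66 for BP (edgeR adjusted p = 0.250) and -1.94 for BPI (0.180). Fcgr4, an activating receptor for IgG, was 68.4 and 53.4 CPM in IgG, 199 and 123 in BP, 243 in BPI, 28.9 in CD40 and 349 in UT (1.51, 2.54 and 2.89 for BP, BPI and UT, with edgeR adjusted p of 0.289, 0.0952 and 0.0649). Timd4, the phosphatidylserine receptor TIM-4, was 1.67 and 0 CPM in IgG (1 and 0 UMIs), 9.28 and 14.9 in BP, 30.6 in BPI, 4.69 in CD40 and 22.6 in UT.

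For CD40 against IgG in the same class the 3 genes with the smallest p were Dok2 (-2.12), Siglec1 (-1.78) and Sirpb1c (-1.70), each with an edgeR adjusted p of 1, and for UT the third after Fcgr4 and Timd4 was Cd300lf (2.36, adjusted p = 0.113). For BPI against BP they were Cd200r4 (-7.36), Timd4 (1.798) and Cd300lb (-1.64), each with an edgeR adjusted p of 0.998. In microglia-like cells they were Stab1 (-1.18), Slamf7 (4.65) and Cd36 (3.18) for BP, Stab1 (-1.55), Fcgr4 (3.09) and Fcgr1 (1.27) for BPI, Fcgr4 (3.88), Slamf7 (6.07) and Fcgr1 (1.55) for UT, and Siglec1 (-9.09) for BPI against BP. In tumour-like cells they were Clec4a2 (3.38), Cd300lf (4.68) and Lilrb4a (3.97) for BP, and Gulp1 (-1.77), Npdc1 (1.65) and Fcer1g (3.60) for UT, the libraries BP 1 and UT being those with the highest monocyte/macrophage markers in that class, as given with Cd47. The fitted fold changes of genes near 0 UMIs in a group depend on the prior count.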

How the data were processed

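7 droplet libraries (10x Genomics 3' kits) of pooled NSCG tumours were used. The authors deposited raw UMI counts per gene and barcode against mm10; Cell Ranger 7.0.1 is named in the submitters' processing notes and version 4 stands in the file headers. Library chemistry is labelled V2, but the barcode list of UT differs from the rest. It has 713553 entries, against 1487060 to 2310016 in the others. If UT was made with another kit, its differences from IgG cannot be told apart from those of the kit. The choice of the 10 genes and of the lists was made with earlier results of these data known, and the rule that names clusters was set after the clusters were seen.

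Kept barcodes had 1000 or more UMIs, 500 or more genes and no more than 15% of UMIs from mitochondria. The cells with the highest Scrublet scores (0.8% per 1000 cells) were removed as doublets. Cells were clustered with scanpy 1.11.5 (2000 variable genes, 30 components, 15 neighbours, resolution 1) into 33 clusters, 50 after splits. A cluster took a class when at least 3 of its markers were raised, and 5907 cells (5.07 to 28.0% of a library) stayed unnamed. Free RNA was estimated from droplets of at most 100 UMIs. Its share in a class was the class's share of tumour marker UMIs over their share in those droplets, capped at the whole. In tumour-like cells myeloid markers took the place of tumour markers. RNA of these markers that a class makes itself thus counts as free. Class values need at least 20 cells in a library.

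UMI counts were summed per class and library and tested over all genes with edgeR 4.0.16 in R 4.3.3 (TMM, filterByExpr, quasi-likelihood, Benjamini-Hochberg), and the spread of the lone UT, BPI and CD40 libraries was taken from the IgG and BP pairs. Each pair has a library of set A and another outside it, so that spread includes the difference between library sets. DESeq2 1.42.0 was an alternative. The SE printed with an edgeR fold change is its size divided by the square root of the test's F value, and is not a separate estimate. Scripts were tested on simulated counts. Nothing says that libraries came from separate experiments, so p-values measure the spread between these pools. A fold change of a gene was printed where its unadjusted p was under 0.05 (for the library set, which was taken up for its difference in tumour-like cells, levels only), and of the pathway list for genes past 0.05 adjusted or, with none, for up to 3 with the smallest unadjusted p. Of the 62 listed pathway genes 61 were in the files. Intervals are exact Poisson at 95%. The alternatives were DESeq2, no filter, free RNA subtracted, at least 2000 UMIs per cell, doublets kept, the genes left in the clustering, each IgG and BP library left out (each of the 7 for the class and library contrasts), a replicate block, the library set as a term and UT pooled with IgG. Testing the macrophage side alone and crossing the replicate numbers were added after seeing the data. For likeness across class sums, the 2 genes with the highest Spearman correlation were taken for each of the 10, and 1 of them is not reported here.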

Additional observations from a re-analysis of the deposited data

How the results depend on the processing

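The main edgeR tests called 0 genes of the 10 in each treatment and UT comparison. Counts of called genes of the 10 moved from 0 in these alternatives. In monocyte/macrophage-like cells, for BP against IgG DESeq2, no filter and the library set as a term each gave 1. For BPI against IgG DESeq2, free RNA subtracted and the library set as a term each gave 1, and no filter gave 2. For CD40 against IgG the library set as a term gave 1. For UT against IgG DESeq2, no filter, free RNA subtracted, doublets kept, the macrophage side alone and the library set as a term each gave 1. In tumour-like cells DESeq2 and the library set as a term each gave 2 for UT, and in microglia-like cells no filter gave 1 for UT. Leaving out 1 library gave 0 to 1 in monocyte/macrophage-like cells for BP and for BPI against BP, 1 to 2 for BPI, 1 to 3 for UT, and in microglia-like cells 0 to 3 for BP and 0 to 1 for BPI against BP and for UT; 3 for BP came without BP 2, and 3 for UT without BP 1. For the library set in tumour-like cells, 4 genes in the main test became 1 to 4 with a library left out, 1 without BP 2, and 5 with DESeq2. The median Gas6 level of tumour-like cells was 0.391 CPM, and 0.184 with free RNA subtracted. The cause of each was not tested.

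Replicate numbers of IgG and BP are not said to pair libraries, and same-numbered libraries correlated in their deviations at -0.712, -0.233 and 0.00686 in tumour-like, monocyte/macrophage-like and microglia-like cells. With the replicate block, 0, 39 and 0 genes of all were called for BP against IgG, among them 1 of the 10 genes in monocyte/macrophage-like cells. With crossed numbers, which for these libraries is the set A split, it was 0, 530 and 0 genes, with 1 of the 10.

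Counts over all genes varied more: 0 to 623 for BP, 0 to 651 for BPI, 0 to 49 for CD40, 0 to 155 for BPI against BP and 17 to 1250 for UT (14 in the main test) in monocyte/macrophage-like cells. They were 0 to 716, 0 to 138, 0 to 24, 0 to 243 and 0 to 333 in microglia-like cells, 0 to 60, 0 to 7, 0 and 0 to 784 for BP, BPI, CD40 and UT in tumour-like cells, and 956 to 4801 for the library set. Over 37 fold changes of the 10 genes with an unadjusted p under 0.05, 474 alternative values held 0 reversals, 8 losses and 37 gains of a call. The class contrasts kept every call of the main test in 13 alternatives. Siglecg, which the main filter left out, was also called with no filter and without IgG 1, BP 2 or BPI. Cd200, left out too, was called in some class contrasts with no filter, with doublets kept and without BP 2 or BPI. Depth limits Gas6 (6 to 207 UMIs per library in monocyte/macrophage-like cells), Cd200 and Cd24a in tumour-like cells, and Siglecg (0 to 10 UMIs in monocyte/macrophage-like cells). In microglia-like cells Siglecg had 2 to 30 UMIs per library.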

Other observations

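A small unnamed cluster of 43 cells, 42 of them in BP 1, was led by Hdc, Il4 and Mcpt8 and had all 6 listed mast cell or basophil markers raised. It had 368 CPM of Cd200r1 and 1074 CPM of Cd47, from 1 library in the main and therefore without a replicate. The receptor is known on mast cells and basophils.

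Across 59 sums of a class in a library (15 classes, 10126 genes), genes whose levels ranked most like those of the 10 were as follows, by Spearman rho, given as a description of sums that share libraries, depth and class. Cd47 was nearest to Sp110 (0.839) and Psme1 (0.838), both interferon-induced, and Sirpa to Hexa (0.898) and Zfp710 (0.888). Lhfpl2 (0.899) was among the nearest to Mertk, and Plxna4 (0.848) among the nearest to Gas6. Axl was nearest to Tnfrsf11a (0.817) and Lpl (0.812), Pilra to Npl (0.854) and Gpr84 (0.828), and Cd200r1 to Ccdc88b (0.816) and Cyth4 (0.803). The values were lower for Siglecg with Kynu (0.786) and Pkib (0.779), Cd200 with Tspan2 (0.747) and Cacna1e (0.745), and Cd24a with Cacna1e (0.693) and Lrrk2 (0.684).

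Tumour-like cells of set A were not uniformly low in Sirpa. In the clusters that held most of them (19, 28 and 31) Sirpa was 0.5 to 1.2 CPM. In clusters 21, 23, 27 and 30, which held mostly IgG 2 and CD40 cells, the set A libraries with at least 20 cells of a cluster (22 to 68 cells each) had 6.66 to 17.5 CPM, from 2 to 13 UMIs.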
